A study of Homo sapiens with 5 samples.

Results

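Amino acids enter cells through plasma membrane carriers, and the genes described here are 9 such carriers together with SERINC2, a member of the serine incorporator family of multi-pass membrane proteins. They are SLC6A14, SLC7A5, SLC3A2, SLC1A5, SLC38A1, SLC38A2, SLC7A1, SLC1A4, SLC7A11 and SERINC2. The 10 genes are the rows of the authors' deposited table, out of 27477, whose symbol equals 1 of these names, and all 10 are among the 15223 genes that have an adjusted p. They were chosen by name, with the deposited fold changes and adjusted p-values of this same contrast known and led by the fold change of SLC6A14, so every difference between the groups given for them is a description and supports nothing.

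The study compared cells of PC9, an established human lung adenocarcinoma line that carries an activating EGFR mutation. The groups are gefitinib DTC, drug-tolerant PC9 cells that had spent 6 days in 50 nM gefitinib, an inhibitor of the EGFR kinase, followed by 3 days in growth medium, with 2 libraries, and parental PC9 cells, with 3 libraries. The labels repeat the gefitinib text on every sample, and the split into groups rests on the sample titles. Both groups were grown in RPMI medium with fetal bovine serum, so both met the amino acids of that medium, and all cells come from 1 line. Separate cultures for the replicates are not stated in the labels, so the p-values reflect the spread of these 5 libraries, possibly a technical one.

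Amino acid carriers differ in what they move and in what drives them. Members of the SLC6 and SLC38 families couple uptake to sodium, SLC1A5 and SLC1A4 exchange small neutral amino acids, and SLC7A5 and SLC7A11 are exchangers that reach the cell surface as pairs with the glycoprotein SLC3A2. Glutamine taken up by the sodium-coupled carriers can leave again in exchange for leucine and other large neutral amino acids, and amino acids inside the cell are sensed by mTORC1 and by the GCN2 and ATF4 response. The serine incorporators were named for a proposed role in bringing serine into membrane lipids.

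The authors deposited, for each gene, a mean level over all libraries, a log2 fold change with its standard error, and p-values, but no column per library. The whole reads of each library were recovered from these values, as described under the processing, for all 10 genes, and a "normalised read count" below is a library's reads divided by its size factor. The recovered libraries are called drug-tolerant a and b and parental a, b and c, letters that cannot be matched to the replicate numbers of the labels. Depth was estimated as the size factor times the summed mean level of all genes, 18.0 M. This gave about 14.2 to 21.4 M reads per library, which are not counted totals. Of the 15223 genes with an adjusted p, 14439 had recovered reads.

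The 5 libraries did not fall into 2 blocks by group. Parental b and c stood apart from the other 3 libraries. Over the 14439 genes, the median absolute log2 difference was 0.21 between the drug-tolerant mean and parental a, 0.58 between the drug-tolerant mean and the mean of parental b and c, and 0.62 between parental a and the mean of parental b and c. The drug-tolerant mean was nearer to parental a than to parental b and c in 76.4% of those genes and in 6 of the 10 described here. Parental b and c differed from each other by more than sampling noise, with a chi-square of 1.92 per gene over 15138 genes, and were counted as separate libraries. Epithelial markers of the line were high, with mean levels in the authors' deposited table of 8755 for EPCAM, 35758 for KRT8 and 25968 for EGFR. Of 9 markers of blood, endothelium and fibroblasts, 6 had a row and 3 an adjusted p, namely PECAM1, CDH5 and COL1A1. The normalised read count of PECAM1 was 1926 to 2192 in drug-tolerant and 1151 to 1629 in parental libraries; the sum over the 6 markers was 2400 to 2652 in drug-tolerant and 1477 to 2089 in parental libraries. The part of these genes in the results below was not tested.

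SLC6A14 and SERINC2 were the members with the highest levels in drug-tolerant cells relative to parental cells, and the authors' deposited table called these 2 of 10 members higher at an adjusted p under 0.05 (DESeq2), where 0.263% of all genes tested were called higher. It called 0 of 10 members lower, where 0.289% of all genes tested were called lower. By limma on the recovered reads 0 members were called in either direction, as were 0 of all 14439 genes. At an unadjusted p under 0.05 both methods had 2 members higher and 0 lower. In the authors' deposited table (DESeq2) 3.7% of all genes tested were higher and 7.1% lower by that measure. By limma 721 of the 14439 genes were higher and 839 lower. Inside the adjusted p threshold of 0.05 the nearer member was SLC6A14 at 0.00117, and outside it SLC38A2 at 0.488 (DESeq2, authors' deposited table). The median deposited log2 fold change was 0.36 over the 10 members and -0.02 over all genes tested. Because the contrast chose the members, nothing is read from these counts.

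**Figure D1:**
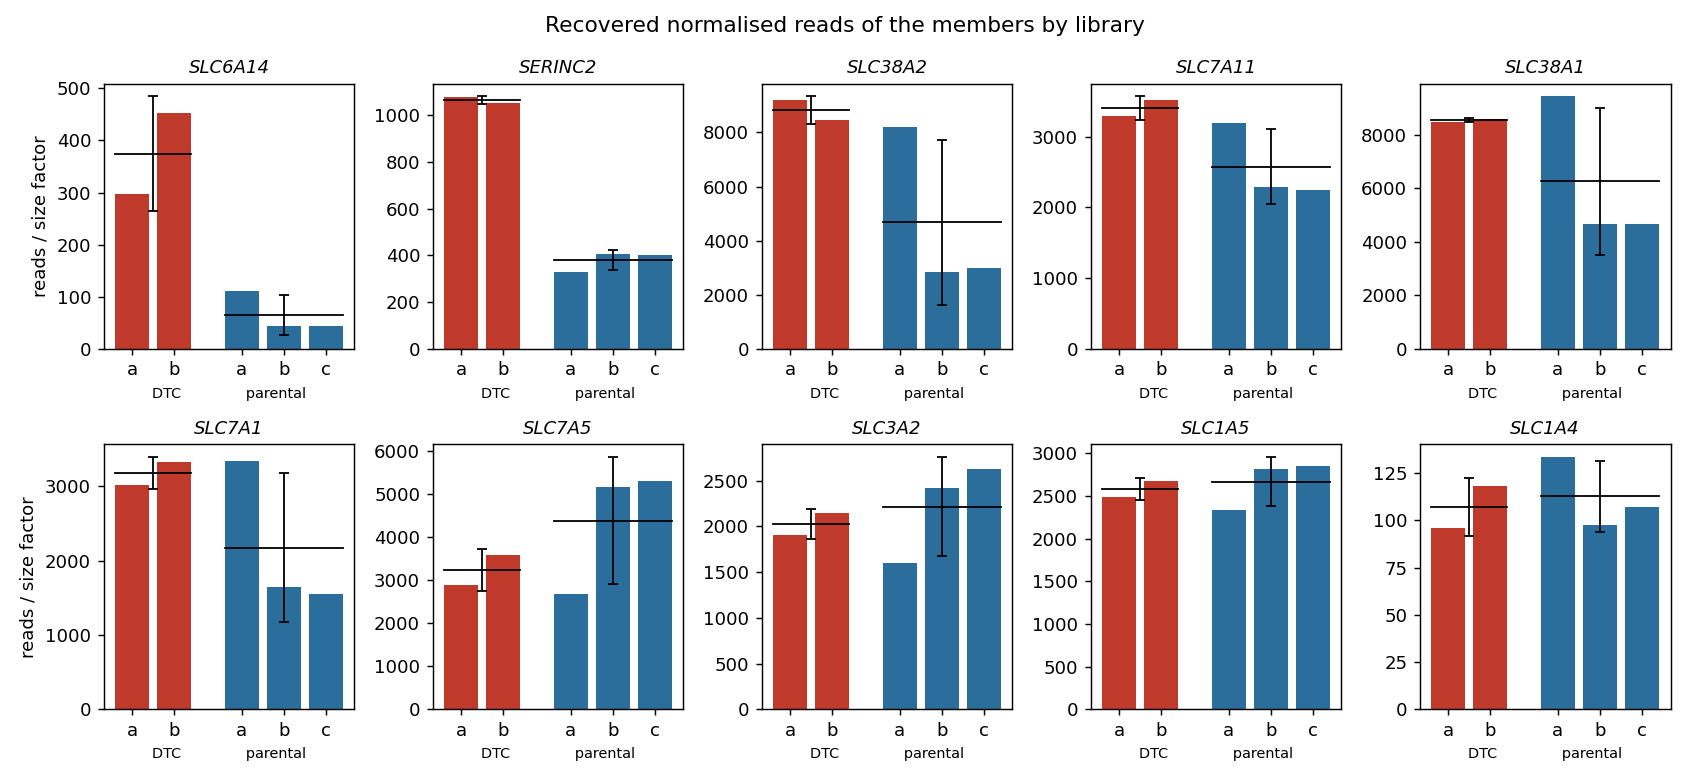
Normalised read count (reads over size factor, vertical axis from 0) of each of the 10 genes in the 2 drug-tolerant libraries (red, left) and the 3 parental libraries (blue, right); horizontal lines are group means and error bars are SDs. SLC6A14 and SERINC2 lie far above every parental library, while for SLC38A1, SLC38A2, SLC7A1 and SLC7A11 the bar of parental a is close to or above the drug-tolerant bars.

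SLC6A14 encodes a sodium- and chloride-driven carrier that takes up neutral and cationic amino acids and is known from airway and gut epithelium. The gene (ENSG00000268104) lies on chromosome X, 116436622 to 116461458 on the plus strand (GRCh38, GENCODE v29). It had 336 and 357 reads in drug-tolerant a and b, against 131, 44 and 42 reads in parental a, b and c. As normalised read counts these are 296 and 453 in drug-tolerant a and b, against 110.0, 43.2 and 43.7 in parental a, b and c. Both drug-tolerant libraries were above all 3 parental libraries, parental a was between the drug-tolerant pair and the other parental pair, and the lower drug-tolerant value was 2.69 times the highest parental one.

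The drug-tolerant mean of SLC6A14 was 374 ± 111 (SD, n = 2) and the parental mean 65.6 ± 38.4 normalised reads (SD, n = 3), a ratio of 5.70. The ratio was 3.41 against parental a alone and 8.61 against parental b and c. The authors' deposited table gives a log2 fold change of 1.80 ± 0.37 (SE), a value moderated towards 0, while the log2 ratio of the recovered group means was 2.51. At 42 reads, counting error alone has an SD of 15.4% of the count, where the SD among the 3 parental libraries was 58.5% of their mean.

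By deposited log2 fold change SLC6A14 ranked 4 among 15223 genes. The 3 genes with a mean level of at least 100 and the log2 fold change nearest to it in the authors' deposited table were IL1RL1 at 1.89, CST4 at 1.64 and CYP26B1 at 1.53. All 3 shared the order of libraries seen for SLC6A14, with both drug-tolerant libraries highest, then parental a, then parental b and c. They were picked by the fold change of this same contrast. Over all genes with recovered reads, the drug-tolerant mean was nearer to parental a than to parental b and c in 76.4%. The share of all genes with the full order was not counted, so nothing is read from it. For IL1RL1, an interleukin receptor, the normalised read count was 1664 and 1994 in drug-tolerant a and b, against 526, 216 and 204 in parental a, b and c. CYP26B1, a retinoic acid hydroxylase, had 301 and 256 in drug-tolerant a and b, against 102, 47.2 and 69.7 in parental a, b and c.

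The 250 bases before the SLC6A14 start (RefSeq, GRCh38.p14, chrX:116436356-116436605, plus strand) are shown because this gene had the highest ratio of the 10. Capitals mark every match to 1 of 6 motifs searched on both strands: TGATGNAA (core of the amino acid response element), TGACNNNGC (core of the antioxidant response element), TGANTCA (AP-1), the CAAT box (CCAAT), the GC box (GGGCGG) and the TATA box (TATAAA).
SLC6A14: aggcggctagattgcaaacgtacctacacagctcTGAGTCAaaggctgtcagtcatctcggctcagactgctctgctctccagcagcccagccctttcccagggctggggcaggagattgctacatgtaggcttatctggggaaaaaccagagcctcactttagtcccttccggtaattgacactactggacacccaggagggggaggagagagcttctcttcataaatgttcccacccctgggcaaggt

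The match in capitals is TGAGTCA, which matches TGANTCA on both strands, with its first base 216 bases before the start. TGANTCA was present in 6.57% of 35114 promoter windows of the same length. The window held none of the other 5 motifs, which says only that these letters are absent from it. Its GC content was 54.8% with 4 CG pairs, where the median window had 58.0% and 11 CG pairs.

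SERINC2 (ENSG00000168528) lies on chromosome 1, 31409565 to 31434680 on the plus strand. It had 1221 and 831 reads in drug-tolerant a and b, against 392, 414 and 385 reads in parental a, b and c. The normalised read counts were 1077 and 1053 in drug-tolerant a and b, against 329, 407 and 401 in parental a, b and c. The groups did not overlap, and the lower drug-tolerant library was at 2.59 times the highest parental library.

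Within the parental group SERINC2 was lowest in parental a. Its mean was 1065 ± 16.5 normalised reads in drug-tolerant cells (SD, n = 2) and 379 ± 43.3 in parental cells (SD, n = 3), a ratio of 2.81. The ratio was 3.24 against parental a alone and 2.64 against parental b and c, so it kept its direction and much of its size whichever parental libraries were used. The authors' deposited table gives a log2 fold change of 1.36 ± 0.23 (SE), adjusted p 3.24e-05 (DESeq2), which ranked 17 among 15223 genes.

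The genes nearest to SERINC2 by log2 fold change in the authors' deposited table, at a mean level of at least 100, were DNAH2 at 1.32, PC at 1.40 and ADAM12 at 1.31. DNAH2 encodes an axonemal dynein heavy chain and PC the mitochondrial pyruvate carboxylase. The likeness did not extend to the order of the parental libraries. PC had a normalised read count of 677 and 667 in drug-tolerant a and b, against 291, 165 and 171 in parental a, b and c, with parental a the highest of the parental libraries, and DNAH2 and ADAM12 also had parental a highest.

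RefSeq lists 4 start sites for SERINC2, and the deposited table does not tell which was used. Of these, start 1 and start 3 in genomic order are shown because they differ in base composition, again with the same 6 motifs in capitals. The window of start 1 (GRCh38.p14, chr1:31409527-31409776, plus strand) has a GC content of 46.0% with 2 CG pairs, and that of start 3 (chr1:31412963-31413212, plus strand) 75.2% with 30 CG pairs.
SERINC2 start 1: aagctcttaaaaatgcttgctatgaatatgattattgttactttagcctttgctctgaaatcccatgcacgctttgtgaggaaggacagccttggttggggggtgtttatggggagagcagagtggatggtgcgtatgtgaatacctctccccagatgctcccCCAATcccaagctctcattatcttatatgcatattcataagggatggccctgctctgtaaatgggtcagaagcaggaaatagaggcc
SERINC2 start 3: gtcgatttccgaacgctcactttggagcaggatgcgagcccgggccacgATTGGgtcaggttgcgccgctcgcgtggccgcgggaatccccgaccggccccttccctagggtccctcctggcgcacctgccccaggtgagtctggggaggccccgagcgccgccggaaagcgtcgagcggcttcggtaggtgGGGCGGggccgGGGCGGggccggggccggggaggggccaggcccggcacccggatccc

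The window of start 1 holds 1 CCAAT match, and that of start 3 holds CCAAT on the opposite strand (printed as ATTGG) and 2 GGGCGG matches. CCAAT was present in 32.0% and GGGCGG in 42.6% of the 35114 windows. Windows were available for 9 of the 10 genes, 18 in all. TGATGNAA matched in 1 of the 18 windows (of SLC1A5), TGACNNNGC in 3 (of SLC1A5, SLC3A2 and SLC7A1) and TGANTCA in 3 (of SLC38A1, SLC3A2 and SLC6A14). Of all windows, 3.14%, 10.9% and 6.57% held them. In SLC3A2 the TGACNNNGC and TGANTCA matches overlap. These matches of SLC1A5, SLC38A1 and SLC3A2 lie in windows of starts inside the annotated span of the gene. The SLC1A5 window at the annotated start of the gene held neither TGATGNAA nor TGACNNNGC.

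SLC38A2 and SLC38A1 encode sodium-coupled carriers of glutamine, alanine and other small neutral amino acids, and SLC38A2 is a classic gene of the response to amino acid shortage. They are neighbours on chromosome 12, 88.2 kb apart on the minus strand, at 46183063 to 46270017 (SLC38A1) and 46358189 to 46372867 (SLC38A2). SLC38A2 had normalised read counts of 9192 and 8477 in drug-tolerant a and b, against 8209.8, 2835 and 2981 in parental a, b and c. The drug-tolerant libraries were above all 3 parental ones, but parental a was close to them and far from parental b and c.

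The ratio of SLC38A2 was 1.89 over all parental libraries, 1.08 against parental a and 3.04 against parental b and c. SLC38A1 had normalised read counts of 8479.97 and 8602 in drug-tolerant a and b, against 9435, 4672 and 4658 in parental a, b and c. Its groups overlapped, with parental a the highest of all 5 libraries. Its ratio was 0.905 against parental a and 1.83 against parental b and c, so in both neighbouring genes parental a was the highest parental library. Per kilobase of exon, the level of SLC38A1 was 0.608 and 0.669 times that of SLC38A2 in drug-tolerant a and b, against 0.758, 1.09 and 1.03 times in parental a, b and c.

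SLC7A1 carries cationic amino acids such as arginine and lysine. It had normalised read counts of 3024 and 3332 in drug-tolerant a and b, against 3336, 1647 and 1547 in parental a, b and c. The groups overlapped at parental a. The ratio was 0.953 against parental a and 1.99 against parental b and c, the same arrangement as for SLC38A1.

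Among the exchangers, SLC7A11, which brings in cystine in exchange for glutamate, had normalised read counts of 3284 and 3520.5 in drug-tolerant a and b, against 3191, 2285 and 2248 in parental a, b and c. The drug-tolerant libraries were above all parental ones by a narrow margin, the lower of them at 1.03 times parental a. The ratio was 1.07 against parental a and 1.50 against parental b and c. In all, both drug-tolerant libraries lay above every parental library in 4 of 10 members, where 19.5% of all genes with recovered reads did so, and below every parental library in 0 of 10, where 16.3% did so.

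SLC7A5, the exchanger of leucine and other large neutral amino acids, and its partner SLC3A2 ran the other way within the parental group. SLC7A5 had normalised read counts of 2893 and 3595 in drug-tolerant a and b, against 2681, 5169.5 and 5319 in parental a, b and c. SLC3A2 had 1908 and 2142 in drug-tolerant a and b, against 1604, 2418 and 2630.5 in parental a, b and c. For both genes parental a was the lowest of the 5 libraries and parental b and c were the highest.

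The direction of SLC7A5 and SLC3A2 therefore depended on the parental libraries used. The ratio of SLC7A5 was 0.739 over all parental libraries, 1.21 against parental a and 0.619 against parental b and c. The ratio of SLC3A2 was 0.913 over all, 1.26 against parental a and 0.802 against parental b and c. Per kilobase of exon, the level of SLC7A5 was 1.65 and 1.83 times that of SLC3A2 in drug-tolerant a and b, against 1.82, 2.33 and 2.21 times in parental a, b and c.

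SLC7A11 and SLC7A5 are both light chains that pair with SLC3A2. The level of SLC7A11 per kilobase relative to that of SLC7A5 was 0.558 and 0.482 in drug-tolerant a and b, against 0.585, 0.217 and 0.208 in parental a, b and c. Here too parental a lay with the drug-tolerant libraries. SLC7A5 has a pseudogene copy with a row of its own, SLC7A5P1, whose mean level was 0.375% of that of SLC7A5, and reads can be shared between them. The antisense gene SLC7A11-AS1 overlaps the span of SLC7A11, with a mean level of 0.831% of it; the use of strand in counting is not given in the sources used here.

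SLC1A5 and SLC1A4, exchangers of alanine, serine, cysteine and, for SLC1A5, glutamine, differed least between libraries. SLC1A5 had normalised read counts of 2491 and 2677 in drug-tolerant a and b, against 2338, 2816 and 2853 in parental a, b and c. SLC1A4 had 96.1 and 118 in drug-tolerant a and b, against 133, 97.3 and 107 in parental a, b and c. The groups overlapped for both genes, and the ratio over all parental libraries was 0.968 for SLC1A5 and 0.950 for SLC1A4. In the authors' deposited table the 95% interval of the log2 fold change ran from -0.48 to 0.40 for SLC1A5 and from -0.65 to 0.52 for SLC1A4.

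**Figure D2:**
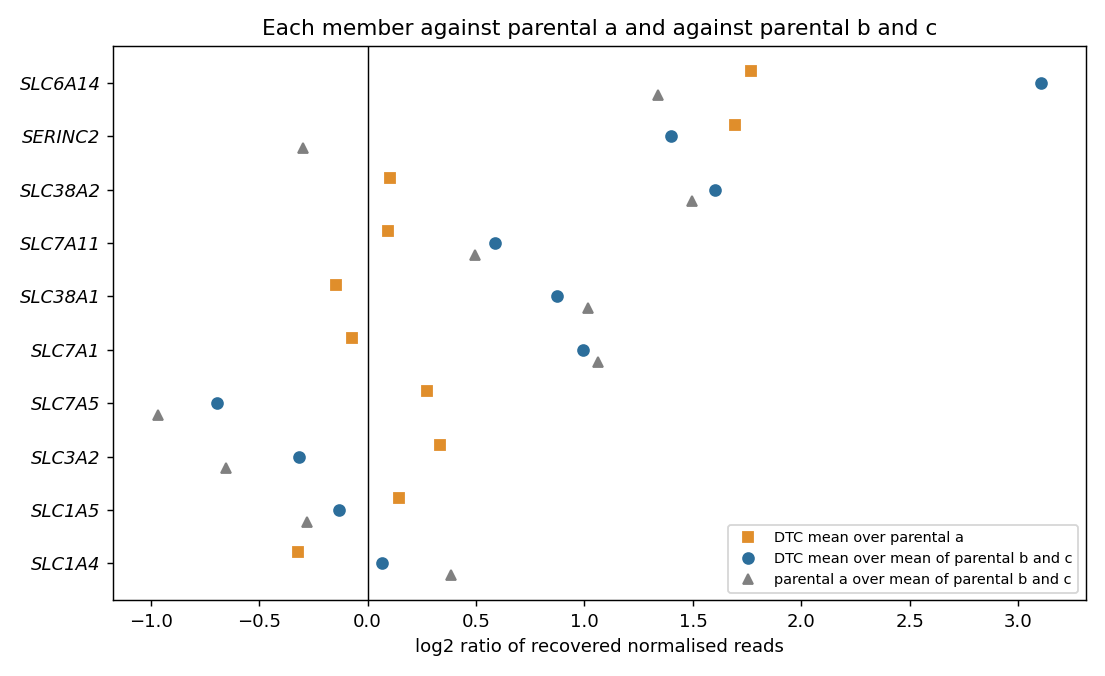
Log2 ratio of normalised read counts (horizontal axis) for each of the 10 genes: drug-tolerant mean over parental a (squares), drug-tolerant mean over the mean of parental b and c (circles), and parental a over the mean of parental b and c (triangles). SLC6A14 and SERINC2 are above 1 against both sets of parental libraries, while for 6 genes, SLC38A1, SLC7A1, SLC7A5, SLC3A2, SLC1A5 and SLC1A4, the squares and circles lie on opposite sides of 0.

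Ranked by level per kilobase of exon in drug-tolerant cells, SLC38A2 came first at 1338 ± 76.5 normalised reads per kb (SD, n = 2), followed by SLC38A1 at 853 ± 8.58, SLC1A5 at 776 ± 39.5 and SLC7A5 at 684 ± 105. SLC7A1 at 413 ± 28.3, SLC3A2 at 391 ± 32.0, SLC7A11 at 353 ± 17.3 and SERINC2 at 300.1 ± 4.64 formed the middle of the order. SLC6A14 at 82.8 ± 24.4 and SLC1A4 at 15.4 ± 2.22 were the lowest. The neighbours SLC1A5 and SLC7A5, SLC7A1 and SLC3A2, and SLC3A2 and SLC7A11 did not differ by more than the sum of their SDs. That measure ignores that the genes were read in the same libraries. Within both drug-tolerant libraries the first-named gene of each pair was the higher.

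In parental cells the order per kilobase was led by SLC7A5 at 925 ± 312 and SLC1A5 at 801 ± 86.2 (SD, n = 3), with SLC38A2 at 708 ± 464, SLC38A1 at 625 ± 275 and SLC3A2 at 428 ± 105 next. SLC7A1 at 283 ± 131, SLC7A11 at 267 ± 55.3 and SERINC2 at 107 ± 12.2 followed. SLC1A4 at 16.2 ± 2.69 and SLC6A14 at 14.5 ± 8.49 were last. Only SLC7A11 and SERINC2, and SERINC2 and SLC1A4, were neighbours in this order that differed by more than the sum of their SDs. These SDs include the split between parental a and parental b and c, and the measure again ignores the shared libraries. In parental b and c SLC3A2 was at 467 and 508 normalised reads per kb, against 214 and 201 for SLC7A1. In parental a it was at 310, against 434 for SLC7A1. SLC6A14 thus made up 1.29% and 1.88% of the summed level per kilobase of the 10 genes in drug-tolerant a and b, against 0.522%, 0.246% and 0.243% in parental a, b and c. The share of SERINC2 was 5.97% and 5.57% in drug-tolerant a and b, against 1.99%, 2.95% and 2.84% in parental a, b and c.

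**Figure D3:**
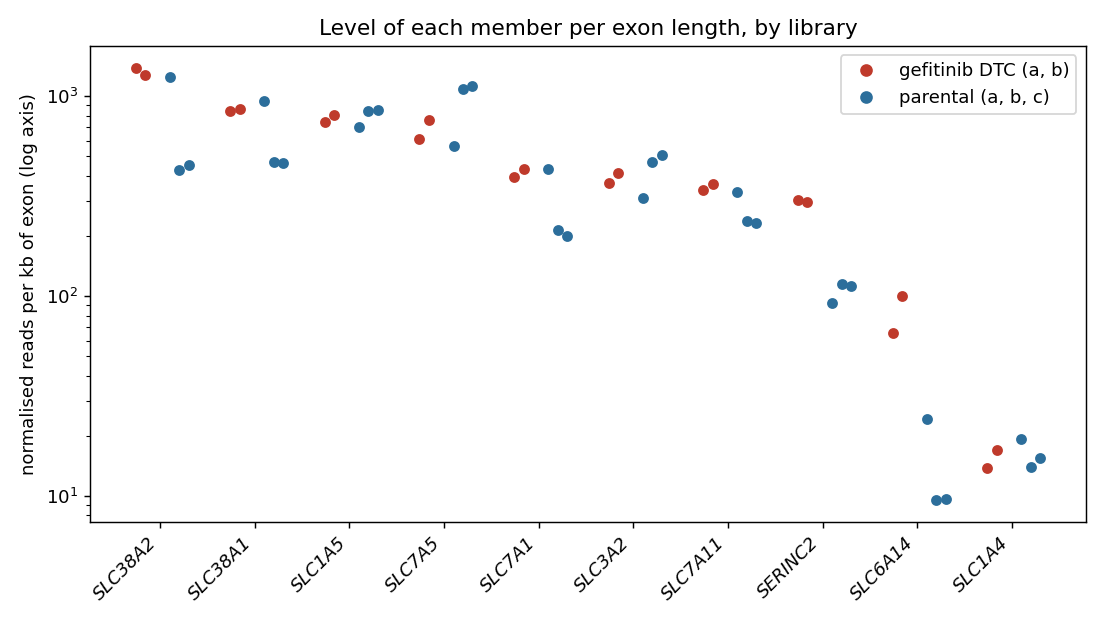
Normalised reads per kilobase of annotated exon (log axis) for each of the 10 genes, ordered by the drug-tolerant mean; red points are the 2 drug-tolerant libraries and blue points the 3 parental libraries. SLC1A4 and SLC6A14 are the lowest genes, and SLC6A14 is above SLC1A4 in the 2 drug-tolerant libraries and parental a and below it in parental b and c.

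The other genes of amino acid uptake and use were described from 9 lists with 151 genes, of which 138 have a row and 123 an adjusted p. Of the 123, 0 were called in the authors' deposited table (DESeq2); at an unadjusted p under 0.05, 7 were higher and 5 lower, where 3.7% of all genes tested were higher and 7.1% lower. By limma on the recovered reads of 120 of them 0 were called, as were 0 of all 14439 genes; at an unadjusted p under 0.05 limma had 10 of the 120 higher and 3 lower, and 721 of all genes higher and 839 lower. Both drug-tolerant libraries were above all parental ones in 27 of the 120 and below in 14, where 19.5% and 16.3% of all genes with recovered reads were.

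Of 18 other carriers tested, 10 had a positive and 8 a negative log2 fold change, and their median in the authors' deposited table was 0.01. Over all genes tested 7372 were positive and 7851 negative. SLC1A3, a glutamate and aspartate carrier, had normalised read counts of 1415 and 1176 in drug-tolerant a and b, against 1174, 196 and 178 in parental a, b and c. Its parental a library was at the level of drug-tolerant b. SLC1A1, another glutamate carrier that also takes up cysteine, had 573 and 584 in drug-tolerant a and b, against 463, 348 and 301 in parental a, b and c, which is above all parental libraries. The creatine carrier SLC6A8, of the same family as SLC6A14, had 557 and 519.8 in drug-tolerant a and b, against 582, 867 and 939 in parental a, b and c, below all parental libraries. SLC43A2, a carrier of large neutral amino acids, had 43.2 and 69.7 in drug-tolerant a and b, against 63.0, 110.1 and 118 in parental a, b and c, with overlap.

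None of the 3 other serine incorporators tested was called. SERINC5, known for blocking the infectivity of HIV particles, had normalised read counts of 7261 and 6746 in drug-tolerant a and b, against 5676, 3694 and 3457 in parental a, b and c. It lay above all parental libraries, and the authors' deposited table gives a log2 fold change of 0.61 ± 0.28 (SE), adjusted p 0.446 (DESeq2). SERINC3, which has the same activity, had 2599 and 2722 in drug-tolerant a and b, against 3023, 3258 and 3296 in parental a, b and c, below all parental libraries. SERINC1 had 2427 and 2510.09 in drug-tolerant a and b, against 2986, 2421 and 2323 in parental a, b and c, with overlap. The log2 fold change of SERINC2 stood above those of the other 3 family members, whose highest was that of SERINC5.

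Of 8 genes of serine and glycine synthesis, 2 had a positive and 6 a negative log2 fold change, where 7372 and 7851 of all genes tested did. Their median in the authors' deposited table was -0.01. PHGDH, the first enzyme of the serine pathway, had normalised read counts of 1640.26 and 1656 in drug-tolerant a and b, against 2038, 1803 and 2069 in parental a, b and c. It was below all parental libraries, at a ratio of 0.836. MTHFD1, a cytosolic one-carbon enzyme, had 2306 and 2386 in drug-tolerant a and b, against 2157, 1416 and 1494 in parental a, b and c. For PSAT1, the next enzyme of the pathway, the ratio was 0.952, and for MTHFD2, the mitochondrial one-carbon enzyme, 0.975, both with overlap.

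In the list of glutamine, glutamate and asparagine metabolism, asparagine synthetase, ASNS, had normalised read counts of 136 and 164 in drug-tolerant a and b, against 214, 207 and 199.9 in parental a, b and c, below all parental libraries. The proline synthesis gene PYCR1 had a ratio of 0.731, with overlap. Of the 10 genes of this list, 4 had a positive and 6 a negative log2 fold change, where 7372 and 7851 of all genes tested did. Both drug-tolerant libraries were above all parental ones in 2 of the 10 and below in 2, where 19.5% and 16.3% of all genes were.

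Of 17 regulators and targets of the amino acid response, 4 had a positive and 13 a negative log2 fold change. Over all genes tested these numbers were 7372 and 7851. The median of the 17 in the authors' deposited table, -0.22, was the lowest of the 9 lists. Of 15 with recovered reads, both drug-tolerant libraries were above all parental ones in 0 and below in 2. Among all genes with recovered reads 19.5% were above and 16.3% below. The median absolute log2 difference of the 15 from the drug-tolerant mean was 0.10 for parental a and 0.49 for parental b and c. ATF4 is the transcription factor of the amino acid response. Its normalised read counts were 4344 and 4608 in drug-tolerant a and b, against 4175, 9228 and 9812 in parental a, b and c. Its ratio was 1.07 against parental a and 0.470 against parental b and c. TRIB3, an ATF4 target, had 422 and 467 in drug-tolerant a and b, against 558, 797 and 784 in parental a, b and c, below all parental libraries. CEBPB, a partner of ATF4, had 2119.99 and 2225 in drug-tolerant a and b, against 2177, 3286 and 3429 in parental a, b and c. ATF3, a further stress-induced factor, was at 0.80 ± 0.41 (SE) on the log2 scale of the authors' deposited table; its reads could not be recovered.

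The 20 cytosolic aminoacyl-tRNA synthetases load amino acids onto their tRNAs. Their median log2 fold change in the authors' deposited table was 0.09, with 11 positive and 9 negative. Over all genes tested 7372 were positive and 7851 negative. Both drug-tolerant libraries were above all parental ones in 8 of the 20 and below in 1, where 19.5% and 16.3% of all genes were. EPRS, the glutamyl-prolyl synthetase, had normalised read counts of 5695 and 6071 in drug-tolerant a and b, against 5372, 2513 and 2566 in parental a, b and c. The methionyl (MARS), valyl (VARS) and alanyl (AARS) synthetases had ratios of 1.44, 1.33 and 1.47 with no overlap between groups. Against parental a alone these ratios were 1.17, 1.23 and 1.13.

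In the list of cystine and glutathione, CTH, which makes cysteine from cystathionine, had normalised read counts of 171 and 164 in drug-tolerant a and b, against 94.0, 95.3 and 102 in parental a, b and c. The ratio was 1.78 against parental a and 1.70 against parental b and c, nearly the same against both sets of parental libraries. For CTH the authors' deposited table gives a log2 fold change of 0.69 ± 0.27 (SE), adjusted p 0.341 (DESeq2). GPX4, the glutathione peroxidase that reduces lipid peroxides, had 1514 and 1572 in drug-tolerant a and b, against 1376, 3694 and 3835 in parental a, b and c. GSR, glutathione reductase, had a ratio of 0.798, and CD44, which stabilises SLC7A11 at the cell surface, was at 0.33 ± 0.28 (SE) on the log2 scale of the authors' deposited table.

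Of 30 genes of amino acid sensing by mTORC1, both drug-tolerant libraries were above all parental ones in 8 and below in 3, where 19.5% and 16.3% of all genes were. MTOR, the kinase itself, had normalised read counts of 1749 and 1747 in drug-tolerant a and b, against 1323, 479.6 and 418 in parental a, b and c. RPTOR, its scaffold, had 671 and 723 in drug-tolerant a and b, against 518, 392 and 368 in parental a, b and c. LAMTOR4, a subunit of the lysosomal anchor, had 302 and 266 in drug-tolerant a and b, against 308, 740.0 and 749 in parental a, b and c, and so was close to parental a. TSC2, a brake on the pathway, was above all parental libraries with a ratio of 1.66. In the list of branched-chain and tryptophan breakdown, KYNU, a kynurenine pathway enzyme, had 78.5 and 77.3 in drug-tolerant a and b, against 117, 138 and 149.9 in parental a, b and c, below all parental libraries. BCAT2, DBT and AHR overlapped, with ratios of 0.802, 1.26 and 1.17.

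**Figure D4:**
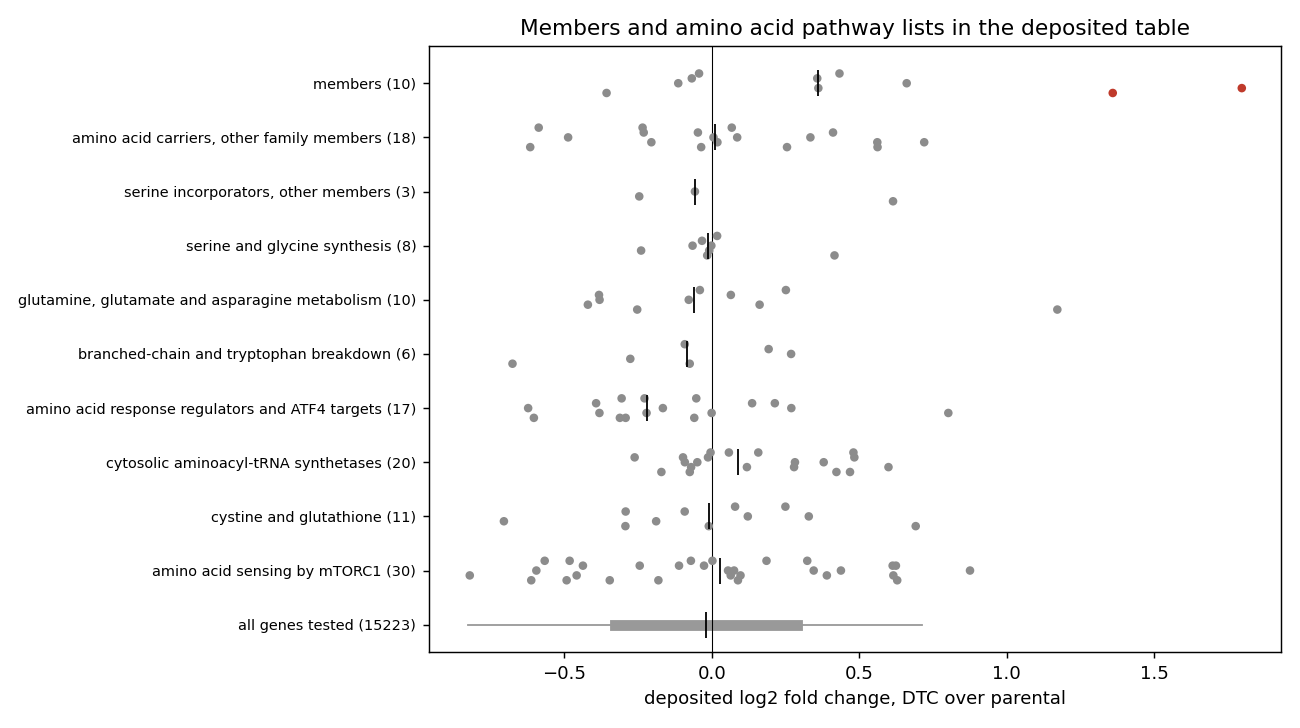
Deposited log2 fold change, drug-tolerant over parental (horizontal axis), of each gene with an adjusted p in the 10 members and the 9 lists, with the number of genes in brackets; ticks mark medians, red points are genes called at an adjusted p under 0.05, and the bottom bar gives the median, the quartiles and the central 95% of all 15223 genes. The red points are SLC6A14 and SERINC2.

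The calls depended on the parental libraries and on the method. With parental a left out, limma called 6 members higher (SLC6A14, SERINC2, SLC38A1, SLC38A2, SLC7A1 and SLC7A11) and 3 lower (SLC7A5, SLC3A2 and SLC1A5), where 36.2% and 36.1% of all genes were called; with parental b and c left out together it called 4 higher (SLC6A14, SERINC2, SLC7A5 and SLC3A2) and 1 lower (SLC38A1), where 15.3% and 10.4% were called, on the spread of the drug-tolerant pair alone, which the lone parental library is assumed to share. SLC6A14 and SERINC2 were higher in both settings, and SLC7A5, SLC3A2 and SLC38A1 were called in opposite directions.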

How the data were processed

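RNA-seq libraries of PC9 cells, made with a stranded mRNA kit per the labels' protocols, were given by the authors as 1 table of 27477 genes. FastQC, STAR, DESeq2 and the build hg38 are named in the submitters' processing notes; the sources used here give no version, counting tool or annotation. The mean level was deposited as a signal, the mean of reads over size factors; log2 fold changes and errors were deposited on the log2 scale, moderated towards 0; the table also holds the Wald score and the raw and adjusted p-values that the authors deposited. Positive values are higher in drug-tolerant cells.

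Reads per library were recovered as a set of whole numbers that gives the deposited mean level, fold change and standard error within rounding. The 1 set taken also had to give the dispersion expected under a model of the authors' DESeq2 procedure, fitted to recovered reads. Where no set gave that dispersion, a lone set by fold change and standard error was taken, except at high mean levels. Below a mean level of 10 the mean alone fixed the reads of all 12705 genes. Size factors ran from 0.789 to 1.19. The group of each library was read from the sign of the deposited fold change of genes with reads in that library alone: 3 libraries had 298, 63 and 79 such genes lower and 0 higher, and 2 libraries had 409 and 102 higher and 0 lower. For SLC38A2, 2 sets were within the wider dispersion limit of 0.01 and 1 within 0.001, which was taken. The procedure was tested on simulated reads. Genes with a mean level above 4000 were searched only in the lists, up to 8000.

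The planned count tests, edgeR and DESeq2, were not run, since the table holds no counts; limma 3.58.1 (trend, log2 of reads over size factor plus 0.5, R 4.3.3) was used as an alternative on 14439 genes. The fit was tested on simulated data, where it found 45% of 2-fold and 99% of 4-fold changes, with 11 false calls. That simulation held no split among the parental libraries, so its outcome does not bear on the calls made here. Exon lengths and coordinates come from GENCODE v29. A called gene has the authors' adjusted p under 0.05 unless limma is named. The members and lists were chosen with earlier results of these data known. Named are all members, of each list any called gene and up to 4 with the smallest adjusted p at a mean level of at least 10, and the 3 genes nearest in fold change to SLC6A14 and to SERINC2. Markers and overlapping genes are named by their lists and by position. A few genes that these rules name are not reported here.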

Additional observations from a re-analysis of the deposited data

How the results depend on the processing

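SLC6A14 and SERINC2 were called higher, and 0 members lower, at an adjusted p under 0.01 and with a mean level of at least 50. The same held with no filter on the mean level and with the trend over length and GC content removed. At an adjusted p under 0.01, 25 of all 15223 genes were called higher and 14 lower. With a mean level of at least 50 these numbers were 39 and 46 of 11777 genes. They were 34 and 26 of 27476 with no filter, and 43 and 31 of 12461 with the trend removed. With the Wald score centred on its median and divided by its robust SD, 0 members were called higher, and 1 of all 15223 genes was. By limma on the recovered reads 0 were called higher with all libraries, after quantile normalisation and at a mean level of at least 50, settings in which 0 of all genes were called. With each library left out in turn, limma called 0 to 6 members higher and 0 to 3 lower; the 6 and 3 came without parental a, and the other settings gave 0, there also over all genes. With parental b and c left out together, 4 were called higher and 1 lower. In the 9 lists 0 genes were called, 1 (CTH) with the length and GC trend removed, 0 to 87 with each library left out (87 without parental a, where 36.2% of all genes were called higher and 36.1% lower) and 44 without parental b and c, where 15.3% and 10.4% were. Reads of all 10 members were resolved by every criterion together, of 4 by mean level, fold change and standard error, and of 0 by the mean level alone.

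Of 100 alternative log2 fold changes of single members, 11 had the opposite sign, of SLC1A4, SLC1A5, SLC38A1, SLC3A2, SLC7A1 or SLC7A5. In 3 of them, all without parental b and c, the value was also called: 0.28 for SLC7A5, 0.34 for SLC3A2 and -0.14 for SLC38A1. In 12, all of SLC6A14 and SERINC2 with limma, the direction was kept and the call lost, and in 7, all without parental a, a call was gained. No paired analysis was possible because the recovered libraries carry no replicate numbers. The use of limma, its settings and the criteria on reads were chosen after seeing the data, as was leaving out parental b and c together; leaving out each library in turn was planned. The edgeR and DESeq2 tests listed at the start were not run, since the table holds no counts. With 2 libraries against 3 and 44 and 42 reads in parental b and c, the level of SLC6A14 in those libraries is limited by counting.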
